A study of Homo sapiens with 9 samples.

Results

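The fibroblast growth factor (FGF), platelet-derived growth factor (PDGF) and hepatocyte growth factor (HGF) systems were followed in IMR90 ER:RAS cells. Members were taken by gene symbol: the FGF ligands, the FGF receptors FGFR1 to FGFR4 and FGFRL1, the FGF binding proteins, the klotho coreceptors KL and KLB, PDGFA to PDGFD with PDGFRA, PDGFRB and PDGFRL, and HGF with its receptor MET. This gave 41 genes of the 18417 tested, each with 1 probe set of its own, and the rule reads symbols alone. IMR90 is a human lung fibroblast line, whose name the labels spell IRM90, and in ER:RAS an oestrogen receptor domain holds oncogenic RAS inactive until 4-hydroxytamoxifen (4OHT) is added. All cells carried ER:RAS. In 3 arrays (shARID1B+4OHT) cells carried a short hairpin RNA against ARID1B and received 4OHT, in 3 (vector+4OHT) they carried an empty vector and received 4OHT, and in 3 (vector-4OHT) they carried the empty vector without 4OHT. The labels give 4OHT at 100 nM, 6 days after 4OHT for every array and growth for 7 days. The labels name neither the hairpin's identity nor separate cultures, while the article's legend calls the replicates biological, so p-values measure the spread between these samples, which by the labels alone may be technical. No group received 4OHT without ER:RAS or the hairpin without 4OHT, so the drug and RAS cannot be told apart, and the hairpin was compared in 4OHT-treated cells only.

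FGFs are a large family of ligands, most of them secreted, that bind FGF receptor tyrosine kinases together with heparan sulfate. The FGF19, FGF21 and FGF23 hormones need a klotho protein as coreceptor, and FGF11 to FGF14 stay inside the cell, where they bind voltage-gated sodium channels. PDGF dimers act mainly on mesenchymal cells through PDGFRA and PDGFRB. HGF is a classic fibroblast product that acts on epithelial cells through MET. All of these receptors feed into RAS and the ERK kinases, the pathway that ER:RAS enters downstream of the receptors.

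Values are log2 expression from RMA, 1 per gene and array, and a difference of 1 is 2-fold. Array medians lay between 6.70 and 6.79. ARID1B, the hairpin's target, which belongs to the SWI/SNF chromatin remodeller, averaged 8.05 in shARID1B+4OHT and 8.79 in vector+4OHT cells, a log2 change of -0.73 (adjusted p = 0.000179, limma). Calls required an adjusted p below 0.05, with Benjamini-Hochberg adjustment over all 18417 genes. A mean at or below 6.18, the level under which 95% of 341 olfactory receptor genes lay, was taken as not shown to be above background. All 10 fibroblast markers were above it in every group, as were 4 of 7 epithelial markers (KRT8, KRT18, KRT19 and CLDN4) and 2 of 6 leukocyte markers (CD68 and CD14). So were 6 of 7 pericyte and smooth muscle markers and 1 of 7 endothelial markers (CLDN5). EPCAM, CDH1 and PTPRC were below it in every group. The lung epithelial marker SFTPC was above it in both vector groups (6.27 to 6.43 over their arrays), and the endothelial marker PECAM1 in vector+4OHT cells (6.15, 6.37 and 6.32). By this measure 28 of the 41 members were above background in all 3 groups, 12 in none, and FGF14 in the 2 groups with 4OHT. The level of 6.18 lies below every array median, so it is a lenient bound. A gene above it is not thereby shown to be expressed.

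The first comparison, of vector+4OHT with vector-4OHT cells, read the 41 genes with 4OHT against those without it. FGF14, FGF2, HGF and FGFRL1 were higher in vector+4OHT cells, with log2 changes of 2.28, 0.78, 0.34 and 0.24. PDGFD was lowest against vector-4OHT cells, at -1.60, and MET, FGF9, FGF1, PDGFRL, FGF10, FGFR1, PDGFRB and PDGFRA were also lower, at -0.87 to -0.27. In all, 13 of 41 members were called, 4 higher and 9 lower, which is 31.7% against 32.6% of all genes (14.9% higher and 17.6% lower). The share called therefore lay near that of all genes. The members' median log2 change was -0.03, against -0.01 over all genes. Of the 27 ligand genes, counting the intracellular FGFs, 3 were higher and 4 lower, and of the 9 receptor genes 1 was higher and 5 lower. FGF14 and PDGFD were called with at least a 2-fold change, against 2.98% of all genes.

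The second comparison, of shARID1B+4OHT with vector+4OHT cells, asked what differed with the hairpin under 4OHT. FGF14, PDGFD, FGF7, HGF, PDGFRA, FGF9 and FGF2 were higher in shARID1B+4OHT cells, with log2 changes of 1.52, 1.07, 0.52, 0.47, 0.28, 0.27 and 0.19. FGF5, MET, PDGFC and FGFR1 were lower, at -0.56, -0.46, -0.40 and -0.32. These 11 called genes are 26.8% of the members, against 15.7% of all genes (9.63% higher and 6.09% lower). The median over members was -0.05, against -0.02 over all genes. Of the 27 ligand genes 29.6% were called, and of the 9 receptor genes 33.3%. FGF14 and PDGFD again changed at least 2-fold, against 0.434% of all genes.

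The third comparison, of shARID1B+4OHT with vector-4OHT cells, gave what remained of the difference when both treatments were present. FGF14, FGF2, HGF, FGF7 and FGFRL1 were higher in shARID1B+4OHT cells. MET, FGF1, FGFR1, FGF5, FGF10, PDGFD, PDGFC, FGF9, FGF17, PDGFRL, PDGFA and PDGFRB were lower. The 17 called genes are 41.5% of the members, against 31.5% of all genes (15.6% higher and 15.9% lower), and the members' median was -0.11 against -0.03. FGF14 and MET were called with at least a 2-fold change, against 3.02% of all genes. In each comparison every called member also had non-overlapping arrays between the groups compared. The same held for every called gene of the partner lists read below (39, 20 and 38 genes by comparison). The share over all genes was not computed, so non-overlap is not read as support beyond the call. The 3 comparisons share arrays, so a gene's changes in them are given side by side below and are not independent.

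**Figure D1:**
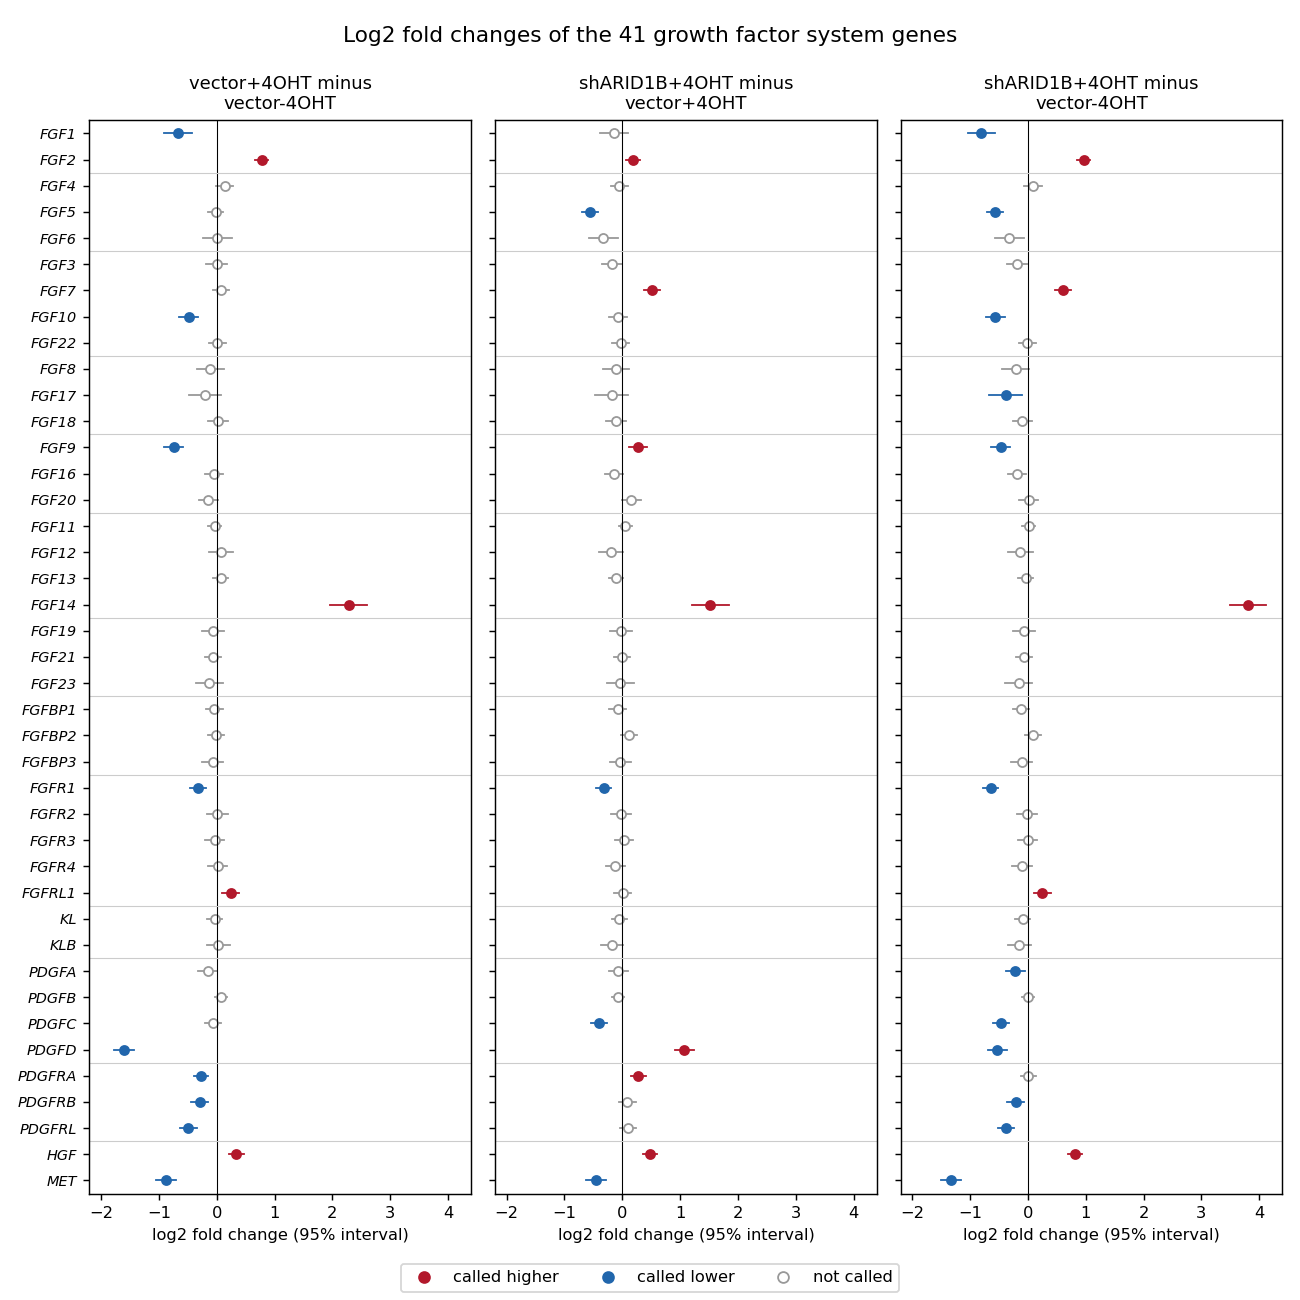
Log2 fold change of each of the 41 members (points) with its 95% confidence interval (bars), in 3 panels for vector+4OHT minus vector-4OHT, shARID1B+4OHT minus vector+4OHT and shARID1B+4OHT minus vector-4OHT, with lines between subfamilies. Filled points were called (13, 11 and 17 genes by panel), and FGF14 lies farthest right in every panel, at 2.28, 1.52 and 3.80, of which the changes against vector-4OHT cells are uncertain in size.

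The start regions of 5 members whose values changed are shown because they sit upstream of genes that moved in different ways: FGF2 and HGF higher with 4OHT, MET and PDGFD lower with it, and FGF7 higher with the hairpin. HGF, PDGFD and, less firmly, FGF2 were also called higher with the hairpin, and MET lower. The 5 genes therefore do not split into those of 4OHT and those of the hairpin. Each region is the 250 bases before the gene's start, from RefSeq (build GRCh38.p14), written 5′ to 3′ on the gene's own strand. Capitals mark the SP1 letters GGGCGG, which read CCGCCC where the match is on the opposite strand.
FGF2 promoter, chr4:122826581-122826830, plus strand: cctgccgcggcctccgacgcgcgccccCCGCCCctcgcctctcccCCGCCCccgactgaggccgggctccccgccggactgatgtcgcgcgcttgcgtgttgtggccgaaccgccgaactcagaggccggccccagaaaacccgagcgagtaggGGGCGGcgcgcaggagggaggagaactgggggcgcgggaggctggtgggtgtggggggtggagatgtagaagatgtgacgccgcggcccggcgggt
HGF promoter, chr7:81770048-81770297, minus strand: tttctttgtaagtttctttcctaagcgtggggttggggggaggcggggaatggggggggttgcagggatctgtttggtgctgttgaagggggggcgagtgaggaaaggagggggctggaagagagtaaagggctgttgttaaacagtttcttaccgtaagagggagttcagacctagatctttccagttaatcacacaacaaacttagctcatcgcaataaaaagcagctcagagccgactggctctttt
MET promoter, chr7:116671946-116672195, plus strand: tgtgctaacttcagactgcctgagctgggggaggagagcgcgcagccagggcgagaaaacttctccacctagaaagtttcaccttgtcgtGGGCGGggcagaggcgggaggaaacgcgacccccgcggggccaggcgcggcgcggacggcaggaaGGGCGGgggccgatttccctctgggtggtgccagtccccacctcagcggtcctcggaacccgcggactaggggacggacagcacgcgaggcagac
PDGFD promoter, chr11:104164148-104164397, minus strand: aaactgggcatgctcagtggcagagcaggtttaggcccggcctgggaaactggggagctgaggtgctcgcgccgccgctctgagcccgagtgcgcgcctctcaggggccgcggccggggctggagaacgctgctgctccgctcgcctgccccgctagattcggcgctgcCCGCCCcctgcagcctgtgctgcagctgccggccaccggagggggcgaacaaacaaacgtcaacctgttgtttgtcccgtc
FGF7 promoter, chr15:49422992-49423241, plus strand: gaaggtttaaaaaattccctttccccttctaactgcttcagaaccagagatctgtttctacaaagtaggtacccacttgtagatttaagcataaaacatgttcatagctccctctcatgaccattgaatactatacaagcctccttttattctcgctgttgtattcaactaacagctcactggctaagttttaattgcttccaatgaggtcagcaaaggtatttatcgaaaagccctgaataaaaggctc
The FGF2, MET and PDGFD regions were rich in G and C (75.2%, 68.4% and 69.2%) and held 3, 2 and 1 matches. HGF, at 50.0% G and C, and FGF7, at 38.4%, held none. Of the 41 members 30 had such a region in the table, with 50 start regions between them, and 28 of the 50 (56%) held the SP1 letters, against 42.6% of all 35116 regions. None of the 5 printed regions held, on either strand, the AP-1 letters TGANTCA (found in 6.57% of all regions and 3 of the 50), the ETS letters CCGGAA (14.5% and 1 of the 50) or the TATA box letters TATAAA (10.7% and 3 of the 50). A match describes letters only, and neither binding nor its lack was measured.

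HGF and its receptor moved in opposite directions. HGF, which fibroblasts release as an inactive precursor, was measured at 11.91, 12.04 and 11.98 in shARID1B+4OHT, 11.47, 11.49 and 11.55 in vector+4OHT, and 11.21, 11.09 and 11.19 in vector-4OHT cells. The 3 groups did not overlap. HGF was 1.27-fold higher in vector+4OHT than in vector-4OHT cells (log2 change 0.34, SE 0.055, adjusted p = 0.000609), and 1.39-fold higher in shARID1B+4OHT than in vector+4OHT cells (0.47, adjusted p = 0.000271). Between shARID1B+4OHT and vector-4OHT cells it differed by 0.81, or 1.76-fold (adjusted p = 9.45e-07).

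MET, the tyrosine kinase that binds HGF, stood at 7.79, 7.93 and 7.72 in shARID1B+4OHT, 8.14, 8.34 and 8.34 in vector+4OHT, and 9.17, 9.07 and 9.20 in vector-4OHT cells. Again no array of one group reached into another, but the order was reversed. The log2 changes of MET were -0.87 for vector+4OHT against vector-4OHT cells (SE 0.076, adjusted p = 6.27e-06), -0.46 for shARID1B+4OHT against vector+4OHT cells (adjusted p = 0.00235), and -1.33 for shARID1B+4OHT against vector-4OHT cells (adjusted p = 2.41e-07). The last leaves MET at 0.397 times its vector-4OHT level. In bulk RNA, fewer cells with a transcript and less transcript per cell cannot be told apart, here and for every gene below.

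Among the FGF genes, FGF14 was higher with 4OHT and higher again with the hairpin. FGF14, one of the intracellular FGFs, read 8.86, 8.92 and 8.83 in shARID1B+4OHT, 7.21, 7.45 and 7.40 in vector+4OHT, and 4.73, 5.44 and 5.03 in vector-4OHT cells. It was 2.87-fold higher with the hairpin than with vector under 4OHT (95% interval of the log2 change 1.20 to 1.84, adjusted p = 7.33e-05). Its vector-4OHT mean of 5.07 ± 0.36 (SD, n = 3) was not shown to be above background, so the log2 changes against those cells, 2.28 for vector+4OHT (adjusted p = 5.5e-07) and 3.80 for shARID1B+4OHT (adjusted p = 1.02e-08), are uncertain in size.

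FGF2 and FGF1, the basic and acidic FGFs that leave cells without a signal peptide, changed in opposite directions under 4OHT. FGF2 was measured at 11.13, 11.18 and 11.20 in shARID1B+4OHT, 11.00, 10.96 and 11.00 in vector+4OHT, and 10.11, 10.25 and 10.26 in vector-4OHT cells. Its vector+4OHT arrays all lay above its vector-4OHT arrays, 1.71-fold higher on average (log2 change 0.78, SE 0.054, adjusted p = 1.13e-06). The further change with the hairpin was 0.19 (adjusted p = 0.0404), and it lost its call when any 1 of the 6 arrays compared was left out (adjusted p = 0.0638 to 0.135). FGF1 read 7.05, 7.16 and 6.99 in shARID1B+4OHT, 6.91, 7.41 and 7.30 in vector+4OHT, and 7.92, 7.85 and 7.84 in vector-4OHT cells. Both groups with 4OHT lay below vector-4OHT cells, with log2 changes of -0.67 for vector+4OHT (adjusted p = 0.000654) and -0.80 for shARID1B+4OHT cells (adjusted p = 0.00019). Between the groups with 4OHT FGF1 overlapped and differed by -0.14 (95% interval -0.38 to 0.10). Without vector+4OHT replicate 1, the low array of its group, that difference was -0.29 (adjusted p = 0.0184).

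FGF7 and FGF5 changed with the hairpin and were not called between the vector groups. FGF7, the keratinocyte growth factor that mesenchymal cells make for epithelia, was measured at 9.10, 9.23 and 9.22 in shARID1B+4OHT, 8.71, 8.57 and 8.71 in vector+4OHT, and 8.66, 8.52 and 8.57 in vector-4OHT cells. The hairpin arrays stood above both vector groups, which overlapped each other. The log2 changes of FGF7 were 0.52 for shARID1B+4OHT against vector+4OHT (SE 0.062, adjusted p = 0.000304), 0.60 against vector-4OHT (adjusted p = 2.41e-05), and 0.08 for vector+4OHT against vector-4OHT cells (95% interval -0.06 to 0.22). FGF7 has near-identical pseudogene copies, and 6 further probe sets name FGF7 together with them, so its values are uncertain to that extent.

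FGF5, known as a regulator of the hair cycle, went the other way. It was measured at 10.98, 10.93 and 11.07 in shARID1B+4OHT, 11.49, 11.61 and 11.55 in vector+4OHT, and 11.65, 11.53 and 11.51 in vector-4OHT cells. The hairpin arrays were below all 6 vector arrays. FGF5 differed by -0.56 between shARID1B+4OHT and vector+4OHT cells (SE 0.060, adjusted p = 0.000161), by -0.57 between shARID1B+4OHT and vector-4OHT cells (adjusted p = 2.79e-05), and by -0.02 between the vector groups (95% interval -0.15 to 0.12).

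FGF9 and FGF10, both known for roles in lung development, were called at levels not shown to be above background in any group, so the sizes of their changes are uncertain. FGF9 read 4.72, 4.72 and 4.74 in shARID1B+4OHT, 4.56, 4.47 and 4.34 in vector+4OHT, and 5.08, 5.34 and 5.17 in vector-4OHT cells. FGF10 read 5.30, 5.44 and 5.30 in shARID1B+4OHT, 5.48, 5.48 and 5.31 in vector+4OHT, and 5.89, 6.02 and 5.82 in vector-4OHT cells. Both were lower in vector+4OHT than in vector-4OHT cells, by log2 changes of -0.74 for FGF9 (adjusted p = 1.72e-05) and -0.49 for FGF10 (adjusted p = 0.000337). With the hairpin FGF9 was 0.27 higher (adjusted p = 0.0305), a call lost in 5 of the 6 fits that left out 1 of these arrays (all but vector+4OHT replicate 1, adjusted p = 0.0741 to 0.0954). FGF17, of the FGF8 subfamily, differed by -0.39 between shARID1B+4OHT and vector-4OHT cells (adjusted p = 0.0391), and was not called without vector-4OHT replicate 2 or 3, vector+4OHT replicate 2, or shARID1B+4OHT replicate 2 or 3 (adjusted p = 0.0543 to 0.151). Between vector+4OHT and vector-4OHT cells it differed by -0.20 (adjusted p = 0.279), and by -0.34 without vector+4OHT replicate 1 (adjusted p = 0.0413).

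**Figure D2:**
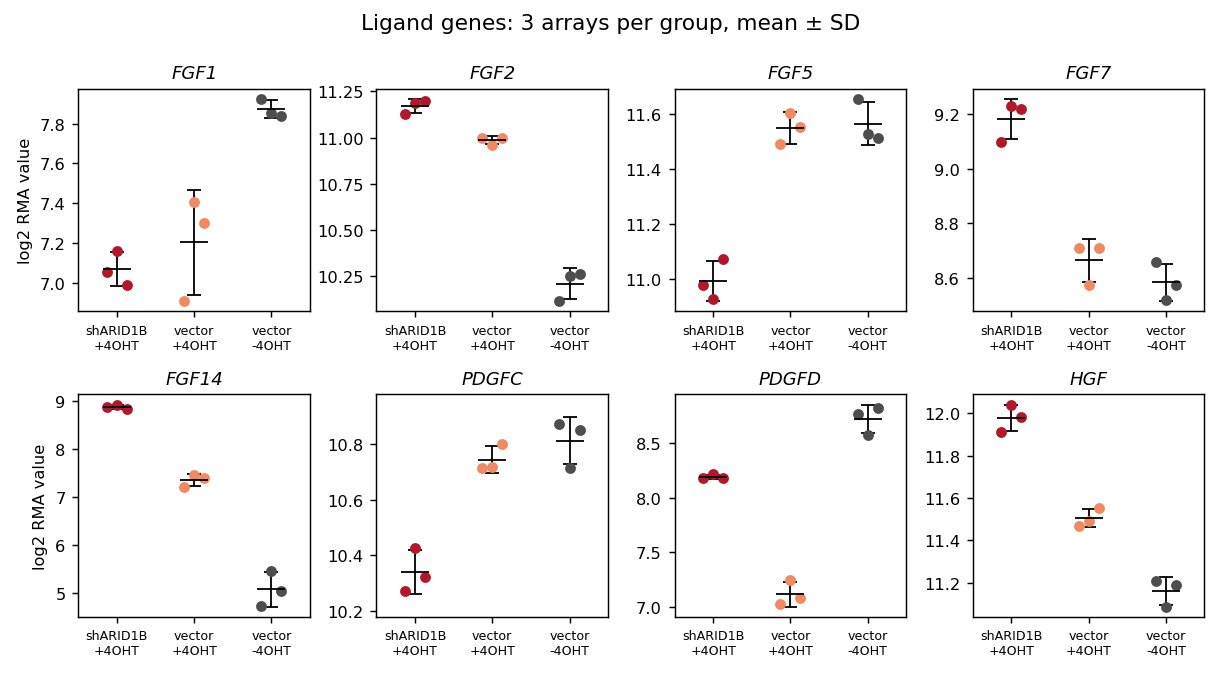
Log2 RMA values of 8 ligand genes on each array (points), with the mean and SD of the 3 arrays of a group (lines), each panel on its own axis that does not start at 0. HGF and FGF14 step down from shARID1B+4OHT over vector+4OHT to vector-4OHT without overlap, while PDGFD is lowest in vector+4OHT, at 7.12 on average.

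Of the FGF receptors, FGFR1, the main FGF receptor of mesenchymal cells, was called in all 3 comparisons. It stood at 9.96, 9.88 and 9.95 in shARID1B+4OHT, 10.20, 10.33 and 10.23 in vector+4OHT, and 10.48, 10.58 and 10.67 in vector-4OHT cells. No groups overlapped, and the log2 changes were -0.32 for vector+4OHT against vector-4OHT (adjusted p = 0.00153), -0.32 for shARID1B+4OHT against vector+4OHT (adjusted p = 0.00457), and -0.65 for shARID1B+4OHT against vector-4OHT cells (adjusted p = 1.11e-05).

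FGFRL1, a receptor-like protein that binds FGFs but lacks the kinase, read 9.70, 9.71 and 9.68 in shARID1B+4OHT, 9.66, 9.77 and 9.65 in vector+4OHT, and 9.31, 9.47 and 9.57 in vector-4OHT cells. It was 0.24 higher in vector+4OHT than in vector-4OHT cells (adjusted p = 0.0175) and differed by 0.01 between the groups with 4OHT (95% interval -0.15 to 0.16). The first call was lost without vector-4OHT replicate 1 (adjusted p = 0.0574) or vector+4OHT replicate 2 (adjusted p = 0.0717). FGFRL1 was 0.25 higher in shARID1B+4OHT than in vector-4OHT cells (adjusted p = 0.0166), a call lost without vector-4OHT replicate 1 (adjusted p = 0.0519) or shARID1B+4OHT replicate 2 (adjusted p = 0.0539).

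FGFR2, FGFR3 and FGFR4 were not called in any comparison. FGFR2 read 5.30, 5.35 and 5.35 in shARID1B+4OHT, 5.56, 5.32 and 5.19 in vector+4OHT, and 5.35 on all 3 arrays in vector-4OHT cells, below the background level in each. FGFR3 read 6.92, 6.93 and 6.91 in shARID1B+4OHT, 7.04, 6.92 and 6.72 in vector+4OHT, and 6.88, 6.97 and 6.92 in vector-4OHT cells. FGFR4 read 6.65, 6.65 and 6.40 in shARID1B+4OHT, 6.79, 6.65 and 6.62 in vector+4OHT, and 6.71, 6.64 and 6.65 in vector-4OHT cells. Groups overlapped for all 3 genes, and the 95% intervals of their log2 changes lay within -0.29 and 0.19 in every comparison.

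Of the PDGF ligands, PDGFD, a ligand of PDGFRB that is secreted in latent form, was lowest with 4OHT and vector. Its values were 8.18, 8.21 and 8.18 in shARID1B+4OHT, 7.03, 7.24 and 7.08 in vector+4OHT, and 8.76, 8.57 and 8.82 in vector-4OHT cells. The hairpin arrays lay between the other groups, and no groups overlapped. PDGFD was 0.330 times its vector-4OHT level in vector+4OHT cells (log2 change -1.60, SE 0.075, adjusted p = 6.18e-08) and 2.11-fold higher in shARID1B+4OHT than in vector+4OHT cells (1.07, adjusted p = 1e-05). A difference of -0.53 from vector-4OHT cells was left in shARID1B+4OHT cells (adjusted p = 0.000274).

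PDGFC, a latent ligand of PDGFRA, was measured at 10.27, 10.43 and 10.32 in shARID1B+4OHT, 10.71, 10.72 and 10.80 in vector+4OHT, and 10.87, 10.72 and 10.85 in vector-4OHT cells. Its vector groups overlapped and differed by -0.07 (95% interval -0.20 to 0.07), and the hairpin arrays were below both. PDGFC differed by -0.40 between shARID1B+4OHT and vector+4OHT (adjusted p = 0.00138) and by -0.47 between shARID1B+4OHT and vector-4OHT cells (adjusted p = 0.00014). PDGFA, the other PDGFRA ligand called, was -0.22 from vector-4OHT cells in shARID1B+4OHT cells (adjusted p = 0.0434). It was not called without vector-4OHT replicate 2 or 3 or shARID1B+4OHT replicate 1 or 2 (adjusted p = 0.119 to 0.14), and with array medians subtracted (adjusted p = 0.169). Between vector+4OHT and vector-4OHT cells PDGFA differed by -0.15 (adjusted p = 0.152), and by -0.22 without vector+4OHT replicate 2 (adjusted p = 0.0499). PDGFB was not called.

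The receptor genes PDGFRA and PDGFRB and the receptor-like PDGFRL were called lower in vector+4OHT than in vector-4OHT cells, as were 17.6% of all genes. PDGFRA read 11.58, 11.57 and 11.53 in shARID1B+4OHT, 11.23, 11.25 and 11.39 in vector+4OHT, and 11.51, 11.53 and 11.62 in vector-4OHT cells. Its vector+4OHT arrays stood apart below the other 6, which overlapped. PDGFRA differed by -0.27 between vector+4OHT and vector-4OHT (adjusted p = 0.00358), by 0.28 between shARID1B+4OHT and vector+4OHT (adjusted p = 0.00783), and by 0.01 between shARID1B+4OHT and vector-4OHT cells (95% interval -0.12 to 0.13).

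PDGFRB read 10.49, 10.46 and 10.42 in shARID1B+4OHT, 10.24, 10.49 and 10.39 in vector+4OHT, and 10.62, 10.66 and 10.73 in vector-4OHT cells. Every array with 4OHT was below every array without it, and the groups with 4OHT overlapped. The log2 changes of PDGFRB against vector-4OHT cells were -0.29 for vector+4OHT (adjusted p = 0.00541) and -0.21 for shARID1B+4OHT (adjusted p = 0.0335). The call in shARID1B+4OHT cells was lost without vector-4OHT replicate 2 or 3 or any of the 3 shARID1B+4OHT arrays (adjusted p = 0.0568 to 0.113), and with array medians subtracted (adjusted p = 0.19). PDGFRL, a receptor-like protein without a kinase, read 10.26, 10.20 and 10.11 in shARID1B+4OHT, 10.04, 10.04 and 10.17 in vector+4OHT, and 10.59, 10.64 and 10.49 in vector-4OHT cells. It was lower in both groups with 4OHT than in vector-4OHT cells, by -0.49 for vector+4OHT (adjusted p = 0.000126) and -0.38 for shARID1B+4OHT (adjusted p = 0.000745), with 0.10 between them (95% interval -0.04 to 0.24).

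**Figure D3:**
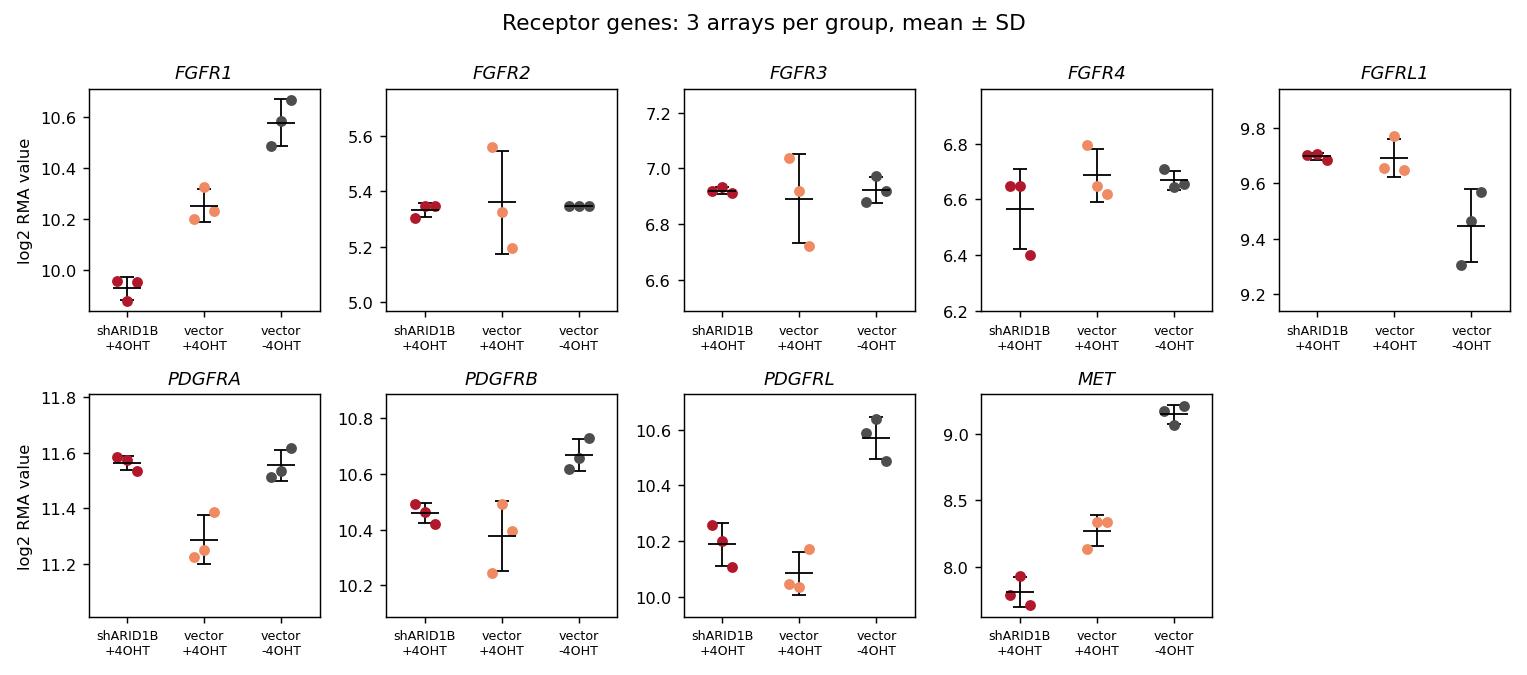
Log2 RMA values of 9 receptor genes on each array (points), with the mean and SD of the 3 arrays of a group (lines), each panel on its own axis that does not start at 0. FGFR1 and MET are lowest in shARID1B+4OHT (means 9.93 and 7.81), and PDGFRA is lowest in vector+4OHT (11.29).

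The other 23 members were called in no comparison of the fit by group. They were FGF3, FGF4, FGF6, FGF8, FGF11, FGF12, FGF13, FGF16, FGF18, FGF19, FGF20, FGF21, FGF22, FGF23, the binding proteins FGFBP1, FGFBP2 and FGFBP3, which release FGFs from the matrix, FGFR2, FGFR3, FGFR4, KL, KLB and PDGFB. Of these, 10 were below the background level in all 3 groups (FGF6, FGF12, FGF13, FGF16, FGF21, FGFBP1, FGFBP2, FGFR2, KL and KLB) and 13 were above it in all 3. Their log2 changes ran between -0.33 and 0.16, and the 95% intervals between -0.58 and 0.32. The lowest adjusted p was 0.0501, for FGF6 between shARID1B+4OHT and vector-4OHT cells (-0.32). Leaving out vector+4OHT replicate 1 brought calls for FGF8 between vector+4OHT and vector-4OHT cells (adjusted p = 0.0483) and for FGF3 (adjusted p = 0.0457), FGF6 (adjusted p = 0.0101) and FGF8 (adjusted p = 0.0412) between shARID1B+4OHT and vector-4OHT cells. FGF6 was also called between shARID1B+4OHT and vector+4OHT cells (adjusted p = 0.0207) and between shARID1B+4OHT and vector-4OHT cells (adjusted p = 0.023) without vector+4OHT replicate 2. FGF12 was called between shARID1B+4OHT and vector+4OHT cells without vector+4OHT replicate 3 (adjusted p = 0.012), and FGF16 between shARID1B+4OHT and vector-4OHT cells without shARID1B+4OHT replicate 1 (adjusted p = 0.0417).

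Genes that work with these ligands and receptors were read from 5 lists, 70 genes of 77 listed. Between vector+4OHT and vector-4OHT cells 39 of the 70 were called (55.7%, 25 higher and 14 lower), between shARID1B+4OHT and vector+4OHT cells 20 (28.6%, 13 higher and 7 lower), and between shARID1B+4OHT and vector-4OHT cells 38 (54.3%, 26 higher and 12 lower). The shares of all genes were those given above, 32.6%, 15.7% and 31.5%. Without shARID1B+4OHT replicate 2 the second count was 13.

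The list of ERK feedback inhibitors and target genes held 13 of the 25 partner genes that were higher in vector+4OHT cells. In vector+4OHT against vector-4OHT cells 13 of its 15 genes were higher and 1 lower, with a median log2 change of 0.65. That is 93.3% called, against 32.6% of all genes. SPRY4 and SPRY2, Sprouty inhibitors of receptor signalling, were higher by 1.87 (adjusted p = 1.23e-08) and 1.53 (adjusted p = 2.24e-09), and DUSP6 and DUSP4, phosphatases of MAP kinases, by 1.87 (adjusted p = 4.46e-10) and 1.16 (adjusted p = 4.76e-07). SPRY2 gave 1 value, 11.38, on all 3 vector+4OHT arrays, so that group added no spread to its p-values here or with the hairpin. SPRY1 was the one called lower, at -0.41 (adjusted p = 0.000331). Under the hairpin 3 of the 15 were higher and 4 lower than in vector+4OHT cells (46.7%, against 15.7% of all genes), with a median of 0.05. ETV1, an ETS transcription factor, was 0.82 higher (adjusted p = 1.29e-05) and DUSP4 differed by -0.60 (adjusted p = 0.000291). SPRY2 was 0.28 higher (adjusted p = 0.00257) and FOS, an AP-1 subunit, 0.33 higher (adjusted p = 0.00894). Between shARID1B+4OHT and vector-4OHT cells 12 of 15 were higher and 1 lower (86.7%, against 31.5% of all genes), with a median of 0.55.

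Among cofactors that hold FGFs or bind their receptors, more were lower than higher with 4OHT. Of 15, 1 was higher and 7 lower in vector+4OHT than in vector-4OHT cells (53.3%, against 32.6% of all genes), with a median of -0.17. The one higher was FLRT3, a membrane protein that binds FGFR1, at 1.30 (adjusted p = 5.54e-08). Its relative FLRT2 was at -0.99 (adjusted p = 4.92e-06), the heparan sulfate proteoglycan SDC3 at -0.75 (adjusted p = 3.67e-05), and CDH2, the N-cadherin that binds FGFR1, at -0.67 (adjusted p = 2.89e-06). With the hairpin 5 were higher than in vector+4OHT cells and none was called lower (33.3% called, against 15.7% of all genes). The 5 were FLRT2 at 0.78 (adjusted p = 0.00015), FLRT3 at 0.48 (adjusted p = 0.000419), SDC3 at 0.46 (adjusted p = 0.00363), and the proteoglycans SDC2 at 0.30 (adjusted p = 0.00697) and GPC6 at 0.29 (adjusted p = 0.0413). Changes in the list ran from -0.18 to 0.78, and 8 of 15 had an unadjusted p below 0.05. Such unadjusted counts, here and in the lists below, take both directions and have no share of all genes beside them. GPC6 lost its call in every fit that left out 1 array, except that without vector+4OHT replicate 2.

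Of 8 genes that cut or bind PDGFs, 4 were higher in vector+4OHT than in vector-4OHT cells (limma, and the same number at an unadjusted p below 0.05) and none was called lower. Called genes were 50% of the list here and 12.5% with the hairpin, against 32.6% and 15.7% of all genes. PLAU, the urokinase that can activate PDGFD, was higher by 1.13 (adjusted p = 1.42e-07), PLAT, the tissue plasminogen activator that activates PDGFC, by 1.07 (adjusted p = 2.62e-08), and FURIN, a protease of PDGF precursors, by 0.57 (adjusted p = 1.47e-05). With the hairpin PLAU and PLAT were at 0.06 and 0.09 from vector+4OHT cells and not called, and NHERF1, a scaffold of PDGF receptors, was the one gene called, at -0.24 (adjusted p = 0.0238), a call lost without vector+4OHT replicate 1 or 2 or shARID1B+4OHT replicate 1 or 2. An unadjusted p was below 0.05 for 2 of the 8, in either direction.

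Of 14 genes that process HGF or work with MET, 2 were higher and 1 lower in vector+4OHT than in vector-4OHT cells, and 1 was higher and 2 lower in shARID1B+4OHT than in vector+4OHT cells. Called genes were 21.4% of the list in both comparisons, against 32.6% and then 15.7% of all genes. SPINT1, an inhibitor of the protease that activates HGF, was higher by 0.24 (adjusted p = 0.0103) and then by 0.30 (adjusted p = 0.00656). LRIG1, which lowers MET and other receptors, was at -0.37 (adjusted p = 0.000753) and then at -0.40 (adjusted p = 0.0017). KLKB1, plasma kallikrein, was called at -0.24 in shARID1B+4OHT against vector+4OHT cells (adjusted p = 0.00932) at levels below background. CD44, a MET coreceptor, was higher by 0.18 with 4OHT (adjusted p = 0.0115). The receptor adaptors split 5 higher and 5 lower of 18 in vector+4OHT against vector-4OHT cells (55.6% called, against 32.6% of all genes). GAB1, a docking protein for MET, was at -0.83 (adjusted p = 5e-06), while GRB2, which links receptors to RAS, was at 0.42 (adjusted p = 9.79e-05). With the hairpin 4 adaptors were higher than in vector+4OHT cells and none was called lower (22.2% called, against 15.7% of all genes). The first by size was GRB10 at 0.50 (adjusted p = 0.00302). In either direction, 6 of the 18 had an unadjusted p below 0.05. PIK3CB, a catalytic subunit of PI3-kinase, was 0.44 higher with 4OHT (adjusted p = 0.000344) and a further 0.44 higher with the hairpin (adjusted p = 0.00121).

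**Figure D4:**
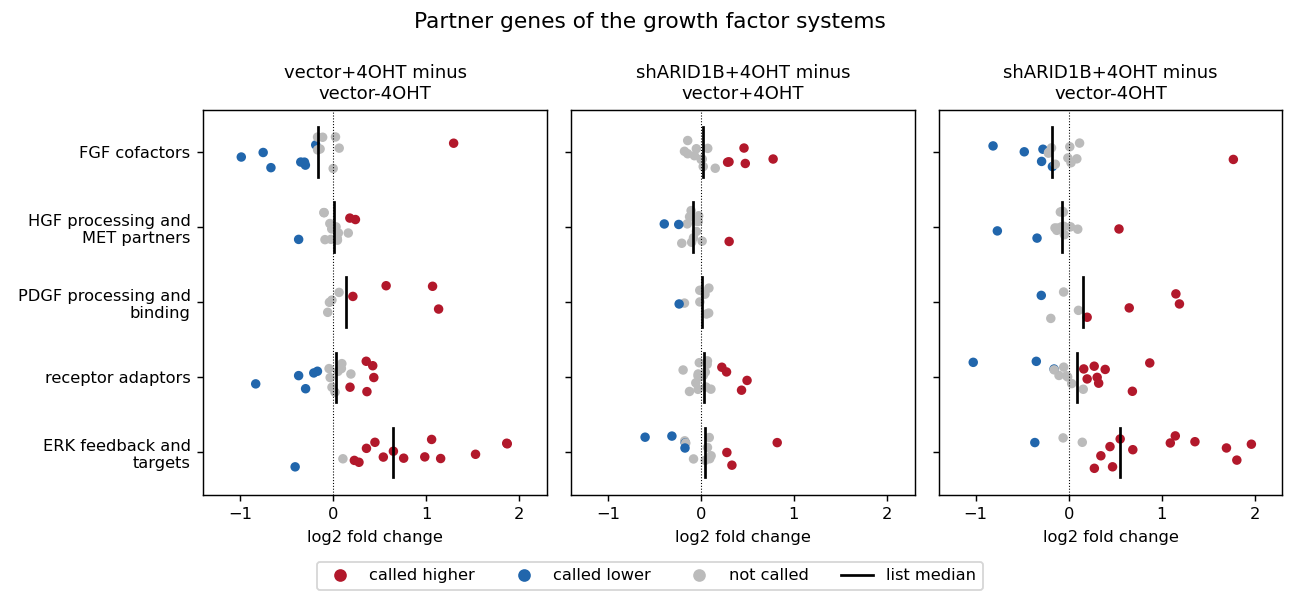
Log2 fold change of each gene in the 5 lists of partner genes (points, spread vertically for legibility), in 3 panels for vector+4OHT minus vector-4OHT, shARID1B+4OHT minus vector+4OHT and shARID1B+4OHT minus vector-4OHT, with the list median as a bar. The ERK feedback and target list has medians of 0.65, 0.05 and 0.55.

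Markers of other cell types were read beside these results. The summed linear level of 7 pericyte and smooth muscle markers was 2720 to 2877 in shARID1B+4OHT, 2390 to 2487 in vector+4OHT and 2036 to 2253 in vector-4OHT cells, in the same order as HGF, and 6 of the 7 were above background in every group. RGS5 moved in that order, at 9.69 in shARID1B+4OHT, 9.18 in vector+4OHT and 7.15 in vector-4OHT cells, while the list's median log2 changes against vector-4OHT cells were -0.09 for vector+4OHT (2 higher and 2 lower) and -0.14 for shARID1B+4OHT (2 higher and 3 lower). That of 6 leukocyte markers was 2971 to 3361 in shARID1B+4OHT, 2423 to 2574 in vector+4OHT and 2038 to 2227 in vector-4OHT cells. Among them CD68, a lysosomal protein, was the one gene called, and PTPRC read 3.90 to 4.07 over all arrays. The 10 fibroblast markers summed to 47978 to 49578 in shARID1B+4OHT, 48126 to 50509 in vector+4OHT and 52138 to 57290 in vector-4OHT cells. Their median log2 changes against vector-4OHT cells were -0.26 for vector+4OHT (6 lower, none higher) and -0.20 for shARID1B+4OHT (5 lower, none higher). With the hairpin the median was -0.02 (1 higher and 1 lower). PDGFRB and PDGFRL were also lower in both groups with 4OHT, and PDGFRA in vector+4OHT cells only. The 7 epithelial markers summed to 1466 to 1544 in shARID1B+4OHT, 1372 to 1567 in vector+4OHT and 1582 to 1699 in vector-4OHT cells, and the 7 endothelial markers to 403 to 430 in shARID1B+4OHT, 414 to 465 in vector+4OHT and 420 to 432 in vector-4OHT cells. The epithelial keratin KRT19 averaged 8.46 in shARID1B+4OHT, 7.60 in vector+4OHT and 8.70 in vector-4OHT cells, lowest in the same group as PDGFD. Its log2 changes were 0.86 for shARID1B+4OHT against vector+4OHT (adjusted p = 0.000321) and -1.10 for vector+4OHT against vector-4OHT cells (adjusted p = 1.22e-05). The epithelial list did not move as one. Its medians were -0.08 for vector+4OHT against vector-4OHT cells (KRT8 and KRT19 lower, none higher) and 0.03 with the hairpin (KRT19 and CLDN4 higher, none lower). Between shARID1B+4OHT and vector-4OHT cells the median was -0.15, and CLDN4 alone was called, higher. The part of these markers in the results was not tested.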

How the data were processed

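Total RNA of 9 samples was labelled for Affymetrix whole-transcript arrays, although the extraction text of the labels names an Illumina library kit. The deposited values are log2 expression after RMA by the authors (background correction, quantile normalisation and probe summary); their processing notes also name oligo and limma, with versions and genome build not given in the sources used here. Of 33297 probe sets, 19460 carried 1 gene symbol, 1754 several and 12083 none. The brightest probe set was kept for 769 genes with more than 1, which left 18417 genes. In 721 genes, among them 2 members that were not called and the partner genes SPRY2 and SRC, 1 value recurred on all 3 arrays of a group.

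All 9 arrays were fitted in limma 3.58.1 (R 4.3.3; lmFit, eBayes) by group, 2-sided, with Benjamini-Hochberg adjustment over 18417 genes. The fit was tested on simulated data. Precision is limited by the number of arrays, with 6 residual degrees of freedom and a median residual SD of 0.0843. Members and lists were chosen with earlier results of these data known, and the promoter letters and the regions printed after values were seen. Named were every called member, and the values of every array for called members with an absolute log2 change of 0.5 or more and for receptors. The plan to name up to 4 called partner genes per list and comparison by smallest p was not followed in full. None was named between shARID1B+4OHT and vector-4OHT cells. A2M with 4OHT, and SOS2 and NCK1 with the hairpin, were among those left out. SPRY1, GPC6, the marker genes given with values and PDGFC's arrays were added after their values were seen. Partner genes SDC4, ANOS1, FRS2, PIK3CA, PIK3R2, CRK and RASA1 were not analysed here. Alternatives were a replicate block, the 6 arrays compared, dim genes left out, averaged probe sets per gene, all probe sets, array medians subtracted, an intensity trend, the methods' Student test, and each array left out.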

Additional observations from a re-analysis of the deposited data

Results flagged for a closer look

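Probe sets that name FGF7 together with its pseudogene copies were kept out of the comparisons, and 6 of the 7 probe sets shared between a member and other genes were of this kind. All 6 stood above the level of vector-4OHT cells in shARID1B+4OHT cells. The log2 changes were 0.53 for 1 probe set naming FGF7P3, FGF7P6 and FGF7 (adjusted p = 0.00915, limma over all probe sets) and 0.61 for 3 others with identical values that name the same genes (adjusted p = 0.0136). They were 0.35 (adjusted p = 0.00351) and 0.40 (adjusted p = 0.00179) for 2 that also name FAM88C and LERFS. FGF7's own probe set differed by 0.60 in the same comparison. Between shARID1B+4OHT and vector+4OHT cells 4 of the 6 were not called, at 0.36 (adjusted p = 0.0916) for the first and 0.39 (adjusted p = 0.135) for the 3 with identical values, and the 2 that also name FAM88C and LERFS were at 0.27 (adjusted p = 0.0286) and 0.28 (adjusted p = 0.025). The remaining shared probe set names EBF1 and PDGFRB, and was 0.59 higher in shARID1B+4OHT than in vector+4OHT cells (adjusted p = 0.00977). Against vector-4OHT cells it was not called, at -0.29 for vector+4OHT (adjusted p = 0.0835) and 0.30 for shARID1B+4OHT (adjusted p = 0.0801). PDGFRB's own probe set was at -0.29 and -0.21 there, so the 2 differed in direction for shARID1B+4OHT cells.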

How the results depend on the processing

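Of the 41 called values of members over the 3 comparisons, 34 were called under every alternative run on them but the methods' Student test, 7 were lost under at least 1, and none changed direction. The filter on dim genes was run on 36 of the 41, since it left out FGF9 and FGF10. The 7 were those of FGF2 and FGF9 in knockdown (shARID1B+4OHT minus vector+4OHT), FGFRL1 in senescence (vector+4OHT minus vector-4OHT), and FGFRL1, FGF17, PDGFA and PDGFRB between shARID1B+4OHT and vector-4OHT cells. Unadjusted, the methods' test kept all 41, which had been selected on the same arrays, so this is no separate check. It called 5998, 4342 and 6691 of all genes in senescence, in knockdown and between shARID1B+4OHT and vector-4OHT cells. After adjustment it kept 31. MET in knockdown then had an adjusted p of 0.0742, PDGFRA values of 0.0525 in senescence and 0.0651 in knockdown, and PDGFRB and FGF1 in senescence values of 0.0849 and 0.0577. FGF17, FGFRL1, PDGFA and FGF9 also lost calls under it. With that adjustment 3737 of all genes were called in senescence and 1446 in knockdown, against 5996 and 2895, and 10 of the 70 partner genes in knockdown against 20. The cause was not tested.

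Leaving out 1 array gave 12 to 15 called members in senescence, 9 to 11 in knockdown and 13 to 20 between shARID1B+4OHT and vector-4OHT cells. The same ranges were 35 to 40, 13 to 19 and 31 to 43 for partner genes, and 5288 to 5969, 1801 to 2817 and 4639 to 6293 for all genes. The lowest knockdown counts of 13 partner genes and 1801 genes came without shARID1B+4OHT replicate 2. With array medians subtracted, 3026 genes were higher and 2658 lower in senescence against 2747 and 3249, and 3452 were higher and 2087 lower between shARID1B+4OHT and vector-4OHT cells against 2867 and 2933. The members split 5 higher and 9 lower, and 5 higher and 10 lower, under it.

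Arrays with the same replicate number did not all deviate together (correlations of -0.26 to 0.32 over 9 pairs, against -0.33 to 0.34 over 18 pairs of different number, across genes), and the labels do not say what a number stands for, so the numbers were not taken to pair samples. With the replicate number as a block, 13, 10 and 18 members, 39, 16 and 36 partner genes and 5658, 2498 and 5437 genes were called in senescence, in knockdown and between shARID1B+4OHT and vector-4OHT cells. Under the block FGF2 was not called in knockdown (adjusted p = 0.0622), and FGF3 was called between shARID1B+4OHT and vector-4OHT cells (adjusted p = 0.0354).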
